A study of Mus musculus with 9 samples.

Results

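The collagen chains of the mouse heart were taken as every gene of the deposited count table whose symbol has the form of a collagen chain (Col, a type number, the letter a and a chain number). This gave 29 chains of 13192 genes: 8 fibrillar chains, 6 chains of basement membrane type IV, 4 chains of type VI, 4 fibril-associated chains and 7 others. The filter on low counts removed 0 of the 29. RefSeq lists 44 such genes in the mouse genome GRCm38.p6. The remaining 15, among them Col2a1, Col8a2, Col11a1 and Col12a1, were not analysed here. Counts of a chain in a library ran from 6 (Col4a6) to 9925 (Col4a1).

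RNA came from the apex of the heart of male wild-type C57BL/6J mice. At 10 weeks of age each mouse had received 1e+11 viral particles of an adeno-associated virus in the right gastrocnemius, a leg muscle, and hearts were taken 12 weeks later. AAV-Osm (5 libraries) is named for the gene of oncostatin M, a cytokine of the interleukin-6 family, and AAV-Null (4 libraries) is the control virus, so injection, virus and dose were shared by both groups. The series text names 5 samples submitted per group, of which 1 from AAV-Null was not analysed here. The study's title names fibrosis, the accumulation of collagen-rich matrix, among the outcomes it was concerned with, and the comparison asks whether transcripts of collagen chains differed in the heart.

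A collagen is built from alpha chains that wind around each other in a triple helix made of glycine-led repeats. Fibrillar collagens form the cables of the interstitium and of scars and are made in the heart mainly by fibroblasts, while type IV collagen forms the sheet-like network of the basement membranes around cardiomyocytes and vessels. Type VI collagen makes beaded filaments between these structures, and fibril-associated collagens sit on the surface of fibrils.

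Total counts ran from 11841106 to 30625134 per library. The labels list the libraries as separate samples without saying that each came from its own mouse, and the p-values reflect only how these samples vary, which may be technical. Osm itself was not analysed here, so the labels had no check by the delivered gene. The 10 cardiomyocyte markers fixed as a list, Myh6, Tnnt2 and Ttn among them, were all measured and summed to 84498 to 113892 CPM (counts put on 1 library-size scale by TMM factors) per library, as the labelled tissue has. In bulk tissue, fewer cells of a type and less RNA per cell cannot be told apart. AAV-Null 1 with AAV-Null 2 and AAV-Osm 2 with AAV-Osm 3 lay closest to each other within their groups. Distances, as chi-square per degree of freedom, did not follow the groups throughout. AAV-Osm 4 lay closer to AAV-Null 1 (17.3) and AAV-Null 2 (18.6) than to its nearest AAV-Osm library, AAV-Osm 3 (30.1). AAV-Null 3 lay closest to AAV-Osm 2, and AAV-Osm 5 to AAV-Null 2 (33.2). Each of the other libraries lay closest to a library of its own group. Of the 29 chains, 19 were highest within their group in AAV-Null 4 and 20 were lowest in AAV-Null 3. In the AAV-Osm group 16 were highest in AAV-Osm 4 and 15 lowest in AAV-Osm 5. Over all genes, AAV-Null 4 held the highest AAV-Null value for 33.5%, AAV-Null 3 the lowest for 21%, AAV-Osm 4 the highest AAV-Osm value for 22.8% and AAV-Osm 5 the lowest for 24.0%.

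The 5 stretches of DNA just upstream of 6 of the genes are given first because the results below turn on these genes: Col1a2 and Col3a1 held the most fibrillar collagen RNA per length, Col15a1 and Col18a1 formed the pair of chains whose balance differed most between the groups, and Col4a4 and Col4a3 are transcribed away from each other out of 1 short intergenic stretch. The sequences come from RefSeq, build GRCm38.p6 (mm10), and are written from 5′ to 3′ on the strand of the gene. Each is the nearest 100 bases upstream of the start that hold no annotated exon, or, for the last, the 71 bases between both genes on the minus strand, the strand of Col4a4. Capitals mark the GC box, GGGCGG, or its reverse complement.
Col1a2, chr6:4505393-4505492, plus strand: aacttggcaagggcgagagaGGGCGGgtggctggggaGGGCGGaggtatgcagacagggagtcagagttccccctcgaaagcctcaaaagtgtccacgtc
Col3a1, chr1:45311438-45311537, plus strand: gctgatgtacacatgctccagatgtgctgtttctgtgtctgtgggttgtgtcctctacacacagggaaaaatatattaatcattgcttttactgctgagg
Col15a1, chr4:47207912-47208011, plus strand: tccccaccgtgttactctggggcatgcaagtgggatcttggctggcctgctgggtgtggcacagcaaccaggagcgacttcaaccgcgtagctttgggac
Col18a1, chr10:77166549-77166648, minus strand: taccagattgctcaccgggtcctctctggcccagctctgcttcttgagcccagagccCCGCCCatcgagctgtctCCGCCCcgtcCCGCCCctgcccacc
Col4a4 and Col4a3, chr1:82586850-82586920, minus strand: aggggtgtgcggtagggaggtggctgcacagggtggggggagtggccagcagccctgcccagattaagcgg

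The stretches of Col1a2 and Col18a1 held 2 and 3 GC boxes, and those of Col3a1, Col15a1 and the Col4a4 and Col4a3 pair held none. The promoter table matched 24 of the 29 chains with 26 windows of 300 bases (250 before and 50 after the start). Over these longer windows, searched on both strands, GGGCGG was found for 16 of the 24 chains, in 17 of 26 windows. It was found in 35.7% of all 32851 windows of the table. CCAAT was in 8 of the 26 windows (37.4% of all windows), TATAAA in 3 (13.6%; Col3a1, Col11a2 and Col13a1) and the palindrome TTCNNNGAA, the letters that STAT factors recognise, in 1 (8.3%; Col28a1). These matches describe letters only, and no binding was measured.

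No collagen chain differed between AAV-Osm and AAV-Null hearts past the threshold, an adjusted p under 0.05 in edgeR's quasi-likelihood test, but most chains had lower mean levels in AAV-Osm. Of the 29 chains, 0 were called, where 16 of the 13192 genes (0.121%) were; DESeq2 called 0 chains and 51 of all genes, limma-voom 0 chains and 13 genes, and limma-voom with library quality weights 0 chains and 170 genes. Log2 fold changes of AAV-Osm over AAV-Null were negative for 25 of the 29 chains (86.2%), against 48.1% of all genes. Their median was -0.28, with a range from -0.81 (Col13a1) to 0.50 (Col14a1), and the median of all genes was 0.01. The 4 chains with a positive value were Col14a1, Col18a1, Col22a1 and Col23a1.

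At an unadjusted p under 0.05, 1 chain was higher (2.89% of all genes) and 6 were lower (3.09% of all genes). The higher chain was Col14a1, and the lower ones were Col13a1, Col4a3, Col4a6, Col5a3, Col8a1 and Col6a2. The smallest adjusted p of any chain was 0.604, for Col14a1. Every AAV-Osm library lay above every AAV-Null library for 1 chain, Col14a1 (1.05% of all genes), and below for 1 chain, Col4a6 (1.23% of all genes). Among the 17 chains with a mean of at least 10 CPM, 16 had a negative value, and among the 12 less abundant chains 9 did. The median of the chains was -0.18 without AAV-Null 4 and -0.12 without both AAV-Null 4 and AAV-Osm 5, with 21 of 29 values negative. Other libraries moved the median the other way, to -0.35 without AAV-Null 3 and -0.33 without AAV-Osm 4.

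**Figure D1:**
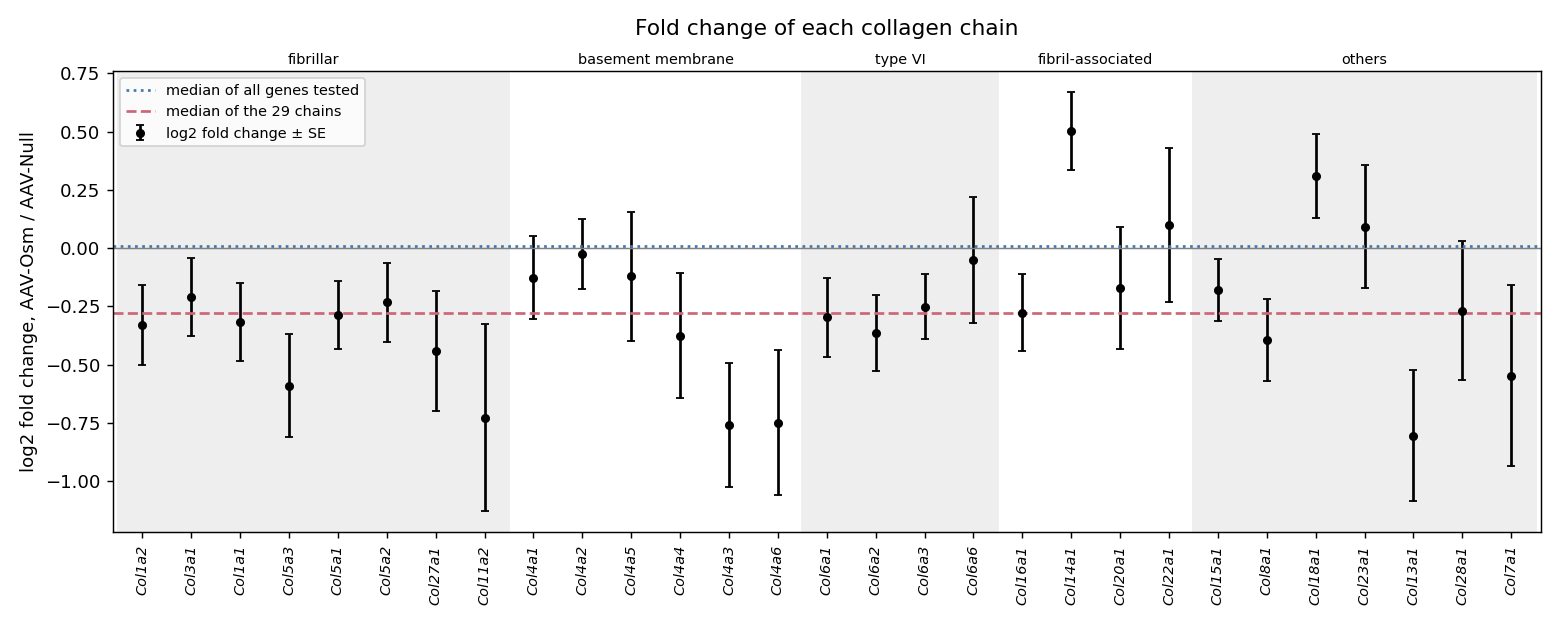
Log2 fold change of AAV-Osm over AAV-Null for each of the 29 collagen chains, grouped by class along the horizontal axis, with bars of ± SE; lines mark the medians of the chains (-0.28) and of all genes (0.01). Below 0 lie 25 of the 29 chains, and 0 passed the threshold.

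Per kilobase of exon, type IV was the most abundant collagen RNA of the apex. Levels compared between chains here are TMM-scaled CPM divided by the summed exon length in kilobases. Col4a1 stood first at 60.4 in AAV-Null and 55.3 in AAV-Osm, and Col4a2 followed at 48.1 and 47.3, with Col4a1 above Col4a2 in 9 of 9 libraries. Col1a2 (28.0 and 22.3), Col6a1 (27.2 and 22.1), Col3a1 (25.6 and 22.1) and Col6a2 (25.8 and 20.04) came next. Within that group each neighbour was ahead of the next in only 5 or 6 of 9 libraries, so their order was not separated from the spread. Col1a1, at 16.5 and 13.3, lay below Col6a2 in 9 of 9 libraries and was not separated from Col15a1 (14.8 and 13), which it exceeded in 4 of 9. All other chains lay below Col15a1, and Col5a3, the next, did so in 9 of 9. The lowest was Col7a1, at 0.120 and 0.0815.

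**Figure D2:**
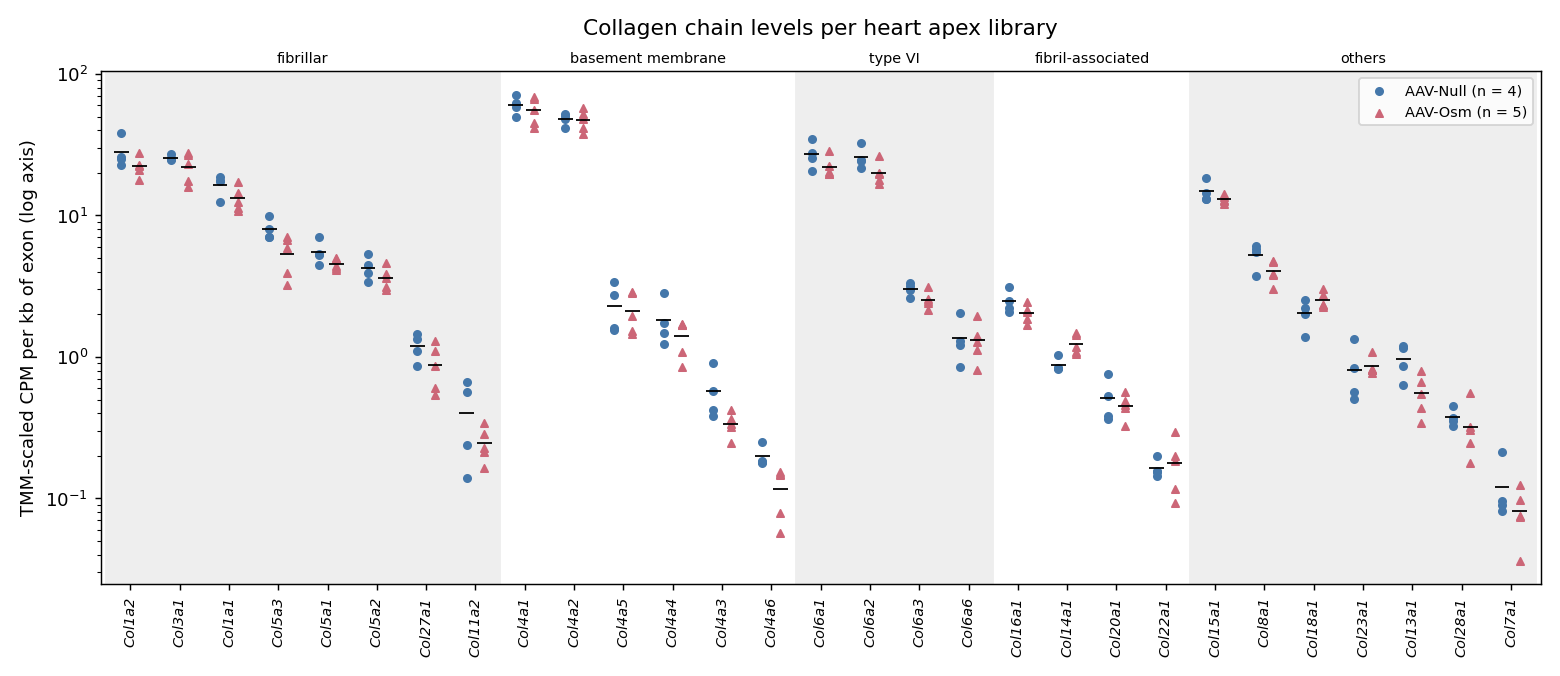
Level of each of the 29 collagen chains in each of the 9 libraries, as TMM-scaled CPM per kilobase of exon on a log axis, with chains grouped by class and a line at each group's mean. Col4a1 and Col4a2 stand highest and Col7a1 lowest, and the points of both groups overlap for all chains except Col14a1 and Col4a6.

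All 8 fibrillar chains had negative log2 fold changes, with a median of -0.32, and 0 of 8 passed the test. Col1a2 (chr6:4505697-4541543, plus strand) encodes the alpha 2 chain of type I collagen, the main collagen of cardiac interstitium and scar. Its levels were 134, 129.5, 117 and 195 CPM in AAV-Null 1 to 4 and 115, 107, 117, 143 and 91.2 CPM in AAV-Osm 1 to 5. The groups overlapped, with AAV-Null 4 standing highest, and means were 144 ± 35 (SD, n = 4) and 115 ± 18.8 CPM (n = 5). The log2 fold change was -0.33 (SE 0.17, adjusted p = 0.883), or -0.15 without AAV-Null 4 and -0.42 without AAV-Osm 4. Col1a1 (chr11:94936270-94951856, plus strand) encodes the alpha 1 chain of type I. It was measured at 87.4, 82.0, 58.1 and 82.6 CPM in AAV-Null and at 53.5, 50.5, 58.9, 80.7 and 67.8 CPM in AAV-Osm. AAV-Null 3 was the low library of its group, within the AAV-Osm range, and AAV-Osm 4 came close to the other AAV-Null libraries. The log2 fold change of Col1a1 was -0.32 (SE 0.17, adjusted p = 0.883). Over 20 alternative settings it ran from -0.48 (limma-voom with quality weights, adjusted p = 0.082) to -0.25 (without AAV-Osm 2).

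Col3a1 (chr1:45311538-45349706, plus strand) encodes type III collagen, whose thinner fibrils mix with type I. Its AAV-Null values lay close together at 142, 137, 139 and 151 CPM. AAV-Osm values spread more widely, at 128, 88.1, 98.0, 148 and 153 CPM, and AAV-Osm 2 and AAV-Osm 3 were the low libraries. The log2 fold change was -0.21 (SE 0.17, adjusted p = 0.938), or -0.11 without AAV-Osm 2 and -0.14 without AAV-Osm 3, and means were 142 ± 6.40 and 123 ± 29.1 CPM. AAV-Osm 2 and AAV-Osm 3 also had the lowest summed level of 14 fibroblast markers, 2095 and 1921 CPM. AAV-Osm 5, with the highest Col3a1, came next at 2205 CPM. Most of the sum was Dcn (768 and 681 CPM in AAV-Osm 2 and AAV-Osm 3) and Gsn (845 and 742 CPM). Not all markers of the list were low there: Pi16 and Mfap4 were higher in AAV-Osm 2 and AAV-Osm 3 than in the other AAV-Osm libraries. A link to Col3a1 was not tested.

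Type V collagen, a minor component that starts fibrils and limits their thickness, was represented by its 3 chains. Col5a1 (chr2:27886425-28039510, plus strand) stood at 44.5, 44.3, 37.8 and 59.0 CPM in AAV-Null and at 35.6, 36.8, 41.3, 41.9 and 34.5 CPM in AAV-Osm. AAV-Null 3 lay inside the AAV-Osm range and the other 3 AAV-Null libraries lay above it, with a log2 fold change of -0.29 (SE 0.14, adjusted p = 0.874). Col5a2 (chr1:45374331-45503282, minus strand) stood at 29.7, 25.9, 22.2 and 35.3 CPM against 24.0, 19.7, 25.3, 30.7 and 20.7 CPM, and its groups overlapped widely. Its log2 fold change was -0.23 (SE 0.17, adjusted p = 0.934). Col5a3 (chr9:20770050-20815034, minus strand), the chain that joins type V only in some tissues, had the lowest log2 fold change among fibrillar chains above 10 CPM. It stood at 42.6, 49.2, 43.0 and 60.5 CPM in AAV-Null and at 23.8, 35.6, 40.5, 42.9 and 19.7 CPM in AAV-Osm. AAV-Osm 1 and AAV-Osm 5 were low, while AAV-Osm 4 touched the AAV-Null range. Means were 48.8 ± 8.33 (SD, n = 4) and 32.5 ± 10.3 CPM (n = 5), a log2 fold change of -0.59 (SE 0.22, adjusted p = 0.690). Without AAV-Null 4 the log2 fold changes were -0.15 for Col5a1 and -0.11 for Col5a2, and that of Col5a3 was -0.34 without both AAV-Null 4 and AAV-Osm 5. Without AAV-Null 3 they were -0.37 for Col5a1, -0.33 for Col5a2 and -0.65 for Col5a3. The remaining fibrillar chains are known mainly from cartilage and were scarce here. Col27a1 averaged 9.06 ± 1.96 and 6.75 ± 2.47 CPM, and Col11a2 averaged 2.27 ± 1.43 and 1.38 ± 0.383 CPM, with overlapping groups for both.

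Basement membrane chains were carried almost wholly by Col4a1 and Col4a2, and the group means of both differed by less than the spread between libraries. Col4a1 (chr8:11198423-11312826, minus strand) and Col4a2 (chr8:11312829-11449287, plus strand) lie head to head, with 2 bases between them in the deposited coordinates and 22 exon bases shared on opposite strands in the GENCODE annotation, and encode the common type IV network found in nearly every basement membrane. Col4a1 stood at 414, 383, 326 and 473 CPM in AAV-Null and at 273, 367, 437, 455 and 297 CPM in AAV-Osm. Col4a2 stood at 325, 309, 266 and 337 CPM in AAV-Null and at 240.4, 308, 369.7, 334 and 267 CPM in AAV-Osm. In both chains AAV-Osm 1 and AAV-Osm 5 were the low libraries and AAV-Osm 3 and AAV-Osm 4 were among the high ones. Log2 fold changes were -0.13 (SE 0.18, adjusted p = 0.973) for Col4a1 and -0.03 (SE 0.15, adjusted p = 0.996) for Col4a2. That of Col4a1 became 0.03 without both AAV-Null 4 and AAV-Osm 5, and that of Col4a2 became 0.05 without AAV-Osm 1.

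The less abundant type IV chains, which form specialised networks best known from kidney, eye, ear and smooth muscle, lie in 2 further head-to-head pairs. Col4a4 (chr1:82450723-82586849, minus strand) stood at 13.6, 11.5, 9.57 and 22.2 CPM in AAV-Null and at 8.41, 13.5, 13.1, 13.2 and 6.65 CPM in AAV-Osm. AAV-Null 4 was high and AAV-Osm 5 low, and the log2 fold change of -0.38 (SE 0.27, adjusted p = 0.934) became -0.08 without AAV-Null 4, -0.23 without AAV-Osm 5 and 0.06 without both. Without AAV-Null 3 the value of Col4a4 was -0.53. Its neighbour Col4a3 (chr1:82586921-82722059, plus strand), across the 71 bases printed above, averaged 4.91 ± 2.04 and 2.91 ± 0.566 CPM, with a log2 fold change of -0.76 (SE 0.27, adjusted p = 0.644). In the annotation, 6.54% of the exon bases of Col4a3 are shared with a transcript of the opposite strand, and without a known strand setting reads from the 2 cannot be told apart.

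Col4a5 (chrX:141475419-141689235, plus strand) and Col4a6 (chrX:141165403-141474076, minus strand) start 1342 bases apart. Col4a5 stood at 21.8, 17.7, 10.0 and 10.4 CPM in AAV-Null and at 9.37, 9.92, 12.6, 18.3 and 18.8 CPM in AAV-Osm. Values spread widely within both groups, and the log2 fold change was -0.12 (SE 0.28, adjusted p = 0.983), or 0.12 without AAV-Null 1 and -0.52 without both AAV-Null 3 and AAV-Null 4. Col4a6 was near the limit of detection, at 1.20, 1.19, 1.68 and 1.22 CPM in AAV-Null and at 0.996, 0.981, 1.03, 0.522 and 0.380 CPM in AAV-Osm, with 6 to 51 counts per library. All 5 AAV-Osm libraries lay below all 4 AAV-Null libraries, yet the log2 fold change of -0.75 (SE 0.31) had an adjusted p of 0.779.

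Type VI collagen assembles from alpha 1, alpha 2 and a larger alpha 3 chain into filaments that tie cells to the matrix. All 4 of its chains had negative log2 fold changes, with a median of -0.27, and 0 passed. Col6a2 (chr10:76595756-76623404, minus strand) stood at 89.9, 92.2, 80.3 and 122 CPM in AAV-Null and at 66.3, 62.4, 74.2, 97.8 and 72.8 CPM in AAV-Osm. Of the AAV-Osm libraries, 4 lay below every AAV-Null library and AAV-Osm 4 lay within their range. Means were 96.1 ± 18.1 (SD, n = 4) and 74.7 ± 13.8 CPM (n = 5), a log2 fold change of -0.36 (SE 0.16, adjusted p = 0.802). Col6a1 (chr10:76708792-76726044, minus strand), 85387 bases from Col6a2, stood at 110.3, 102, 81.9 and 138 CPM against 80.8, 78.3, 88.8, 114 and 77.7 CPM. AAV-Null 4 and AAV-Osm 4 were the highest of their groups, as for Col6a2, and Col6a1 had a log2 fold change of -0.30 (SE 0.17, adjusted p = 0.906). Col6a3 (chr1:90766860-90843971, minus strand) stood at 36.2, 34.3, 28.4 and 32.3 CPM against 28.0, 26.0, 26.9, 33.9 and 23.1 CPM. AAV-Osm 4 again overlapped the AAV-Null libraries, and the log2 fold change was -0.25 (SE 0.14, adjusted p = 0.888). Without AAV-Null 4 the log2 fold changes were -0.16 for Col6a1 and -0.23 for Col6a2, and without AAV-Null 3 they were -0.41 and -0.44. Col6a6, a chain that can replace alpha 3, averaged 10.1 ± 3.78 and 9.81 ± 3.12 CPM (log2 fold change -0.05, SE 0.27).

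Fibril-associated chains went separate ways, with 2 of 4 values negative and a median of -0.04. Col14a1 (chr15:55307750-55520803, plus strand) encodes type XIV collagen, which binds the surface of type I fibrils. It stood at 5.36, 5.31, 5.36 and 6.65 CPM in AAV-Null and at 9.49, 6.81, 7.56, 6.96 and 9.16 CPM in AAV-Osm. All AAV-Osm libraries lay above all AAV-Null libraries, though AAV-Osm 2 and AAV-Osm 4 were only just above AAV-Null 4. Means were 5.67 ± 0.653 (SD, n = 4) and 8.0 ± 1.25 CPM (n = 5), a log2 fold change of 0.50 (SE 0.17) with an adjusted p of 0.604, so this was not a call. Over 20 alternative settings the log2 fold change of Col14a1 ran from 0.43 to 0.59 and its adjusted p from 0.0752 to 1.0. Col16a1 (chr4:130047840-130099277, plus strand), a fibril-associated collagen of many connective tissues, stood at 13, 11.5, 10.9 and 16.2 CPM against 9.73, 11.1, 12.7, 10.9 and 8.78 CPM. Its groups overlapped, with a log2 fold change of -0.28 (SE 0.17, adjusted p = 0.914), or -0.15 without AAV-Null 4 and -0.35 without AAV-Null 3. Col20a1 (chr2:180986535-181017540, plus strand) was scarce, at 3.16, 1.52, 2.24 and 1.61 CPM against 1.83, 1.36, 1.92, 2.35 and 2.04 CPM. AAV-Null 1 alone was high, and the log2 fold change of -0.17 (SE 0.26, adjusted p = 0.976) became 0.07 without it. Col22a1, found at tissue junctions such as that of muscle and tendon, averaged 1.0 ± 0.150 and 1.09 ± 0.482 CPM.

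Among the other chains, the pair of basement membrane collagens with cleavable C-terminal domains had log2 fold changes of opposite sign. Col15a1 (chr4:47208012-47313165, plus strand), whose type XV product links muscle cells and capillaries to the matrix, stood at 69.7, 69.7, 77.1 and 97.7 CPM in AAV-Null and at 75.3, 72.3, 67.3, 64.2 and 67.9 CPM in AAV-Osm. Its AAV-Osm values were tightly grouped, at 69.4 ± 4.37 CPM (SD, n = 5) against 78.6 ± 13.2 CPM (n = 4), and the log2 fold change was -0.18 (SE 0.13, adjusted p = 0.934), or -0.06 without AAV-Null 4, its highest library. Col18a1 (chr10:77052179-77166530, minus strand), the source of the fragment endostatin, stood at 11.7, 8.07, 12.9 and 14.5 CPM in AAV-Null and at 13.6, 13, 17.5, 15.8 and 13.4 CPM in AAV-Osm. AAV-Null 2 was the low library, and AAV-Null 4 lay above 3 of the AAV-Osm libraries. Col18a1 was the only chain above 10 CPM with a positive log2 fold change, 0.31 (SE 0.18, adjusted p = 0.909). That value was positive in all 20 alternative settings, from 0.16 (without AAV-Null 2) to 0.57 (without both AAV-Null 3 and AAV-Null 4).

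Col8a1 (chr16:57624256-57754737, minus strand) encodes a short-chain collagen of vessel walls and of remodelling heart tissue. It stood at 28.0, 29.8, 19.2 and 30.9 CPM in AAV-Null and at 19.6, 24.1, 19.3, 24.3 and 15.4 CPM in AAV-Osm. AAV-Null 3 lay inside the AAV-Osm range and the other AAV-Null libraries lay above it, a log2 fold change of -0.39 (SE 0.18, adjusted p = 0.802), or -0.23 without both AAV-Null 4 and AAV-Osm 5. Col13a1 and Col23a1 encode membrane-spanning collagens. Col13a1, found at muscle and nerve contacts, averaged 3.04 ± 0.834 and 1.76 ± 0.564 CPM, a log2 fold change of -0.81 (SE 0.28, adjusted p = 0.644), and Col23a1 averaged 4.58 ± 2.12 and 4.87 ± 0.728 CPM, a log2 fold change of 0.09 (SE 0.26, adjusted p = 0.987). Col28a1, a collagen of peripheral nerve, averaged 1.59 ± 0.219 and 1.36 ± 0.603 CPM. Col7a1, which makes the anchoring fibrils of skin, averaged 1.10 ± 0.570 and 0.750 ± 0.300 CPM.

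Summed by class, collagen RNA was lower on average in AAV-Osm for fibrillar and type VI chains and close to level for fibril-associated chains, and every class overlapped between the groups. The fibrillar sum was 495, 481, 426 and 593 CPM in AAV-Null, against 385, 346, 391, 499 and 392 CPM in AAV-Osm, a ratio of means of 0.808. In it, 4 of 5 AAV-Osm libraries lay below all AAV-Null libraries, and AAV-Osm 4 did not. The type VI sum was 246, 237, 197 and 308 CPM against 183, 176, 200.4, 261 and 179.7 CPM, a ratio of 0.810. The basement membrane sum was 780.3, 726, 617 and 852 CPM against 534, 702, 837, 825 and 592 CPM, a ratio of 0.939. The fibril-associated sum averaged 21.7 ± 3.03 and 21.6 ± 1.08 CPM, a ratio of 0.996, and the sum of the other chains averaged 128 ± 19.5 and 113 ± 5.98 CPM, a ratio of 0.888. Over all 29 chains the sum averaged 1639 ± 231 (SD, n = 4) and 1436 ± 201 CPM (n = 5), a ratio of 0.876. Without both AAV-Null 4 and AAV-Osm 5 the ratio was 0.956 for all chains, 0.867 for fibrillar, 0.905 for type VI and 1.02 for basement membrane chains. AAV-Null 4 was highest in its group for 19 chains and AAV-Osm 5 lowest for 15, so leaving both out raises the ratio. These were the highest ratios of 14 alternatives. The lowest were 0.832 for all chains, 0.759 for fibrillar, 0.749 for type VI and 0.888 for basement membrane chains.

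The make-up of collagen RNA varied less among the AAV-Null libraries than among the AAV-Osm libraries. Per kilobase, fibrillar chains made up 30.5%, 31.1%, 31.5% and 31.0% of all collagen in AAV-Null and 31.7%, 26.2%, 25.9%, 29.8% and 31.3% in AAV-Osm. Basement membrane chains made up 40.8%, 39.9%, 38.9% and 37.8% in AAV-Null and 37.4%, 45.5%, 47.5%, 41.7% and 39.9% in AAV-Osm. AAV-Osm 2 and AAV-Osm 3 stood out with low fibrillar and high basement membrane shares. The same 2 libraries had the highest cardiomyocyte sums (113892 and 110138 CPM) and the lowest fibroblast sums, most of which were Dcn and Gsn. The part of these marker levels in the shares was not tested. Type VI chains made up 19.8% ± 0.986 and 18.4% ± 1.26, and fibril-associated chains 1.40% and 1.58%.

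**Figure D3:**
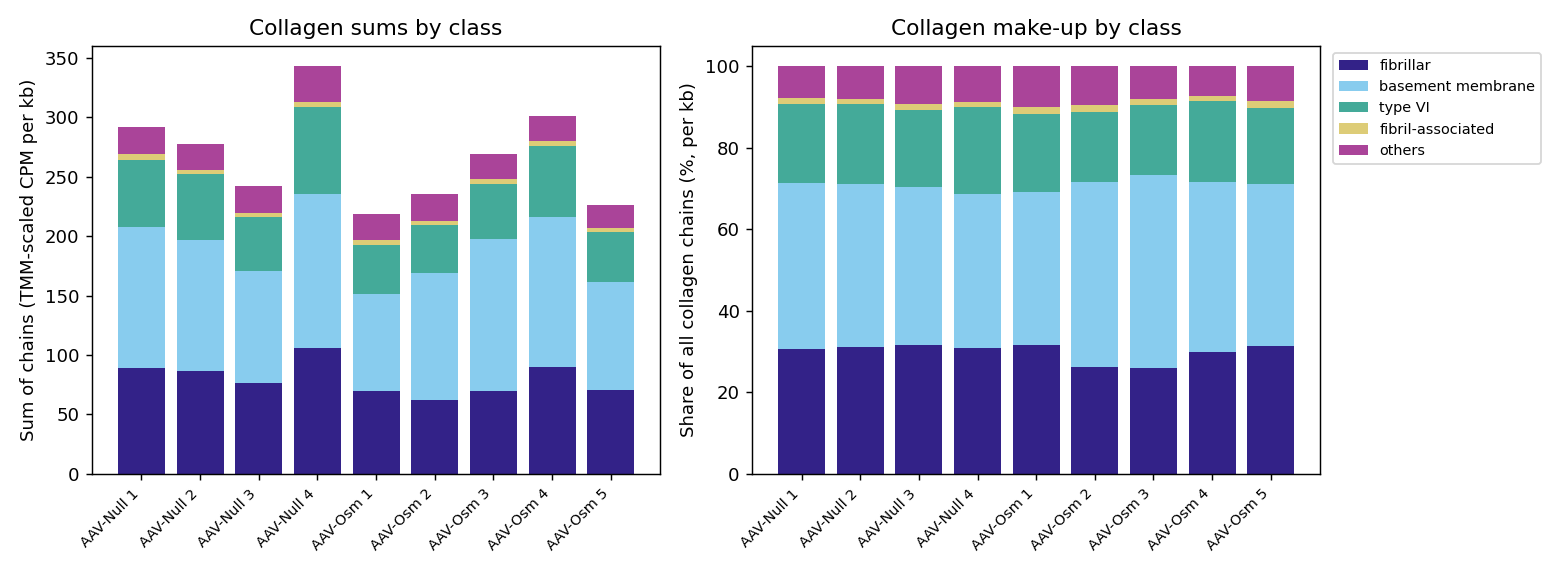
Stacked bars of the 5 collagen classes in each of the 9 libraries, at left as the sum of TMM-scaled CPM per kilobase and at right as a percent of all collagen per kilobase. AAV-Null 4 has the highest total, and in AAV-Osm 2 and AAV-Osm 3 the fibrillar share is 26.2% and 25.9% and the basement membrane share 45.5% and 47.5%.

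No ratio between chains passed the test. For 10 pairs of chains that assemble together or are close relatives, the log2 ratio in each library was compared between the groups by a two-sided exact permutation test over all regroupings of the 9 libraries and adjusted over the 10 pairs. The smallest p these regroupings allow is 0.00794, and a single pair at that value would have an adjusted p of 0.0794, so no single pair could pass after adjustment. Col1a1 to Col1a2, the partners of type I, had a ratio per kilobase of 0.716, 0.693, 0.542 and 0.463 in AAV-Null and of 0.511, 0.515, 0.552, 0.618 and 0.814 in AAV-Osm. Col1a2 RNA thus exceeded Col1a1 RNA per kilobase in all 9 libraries, although type I collagen protein holds more alpha 1 than alpha 2 chains, and the group means were alike (0.604 ± 0.121 and 0.602 ± 0.126; difference of the log2 ratios -0.003, exact p = 0.992, adjusted p = 0.992). Col4a1 to Col4a2 lay between 1.08 and 1.36 in every library (difference -0.11, exact p = 0.175, adjusted p = 0.437). Col6a1 to Col6a2 lay between 0.956 and 1.18 (difference 0.08, exact p = 0.286, adjusted p = 0.571). Col6a3 to Col6a1 was far from even, between 0.0857 and 0.127 (difference 0.03, exact p = 0.897, adjusted p = 0.992). The summed exon length counts every annotated exon, so a ratio between genes depends on how many rarely used exons each one lists, while a comparison of the same ratio between groups does not.

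Col15a1 to Col18a1 was the pair that differed most. The ratio per kilobase was 6.50, 9.40, 6.51 and 7.32 in AAV-Null and 6.05, 6.07, 4.19, 4.43 and 5.52 in AAV-Osm. All AAV-Osm libraries lay below all AAV-Null libraries, with means of 7.43 ± 1.37 (SD, n = 4) and 5.25 ± 0.890 (n = 5). The log2 ratio differed by -0.50 (exact permutation p = 0.016), which did not pass after adjustment over 10 pairs (adjusted p = 0.159, and 0.143 to 0.544 over 12 alternative settings). Within type V, the ratio of Col5a2 to Col5a3 was 0.534 ± 0.0759 in AAV-Null and 0.727 ± 0.209 in AAV-Osm (difference 0.41, exact p = 0.143, adjusted p = 0.437). For Col5a1 to Col5a2 the difference was -0.04 (exact p = 0.635, adjusted p = 0.986). The ratio of Col3a1 to Col1a1 lay between 1.37 and 2.03 (difference 0.08, exact p = 0.690, adjusted p = 0.986). Among type IV pairs, Col4a3 to Col4a4 was 0.312 ± 0.0190 and 0.253 ± 0.0713 (difference -0.32, exact p = 0.135, adjusted p = 0.437), and Col4a5 to Col4a1 differed by 0.04 (exact p = 0.913, adjusted p = 0.992).

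**Figure D4:**
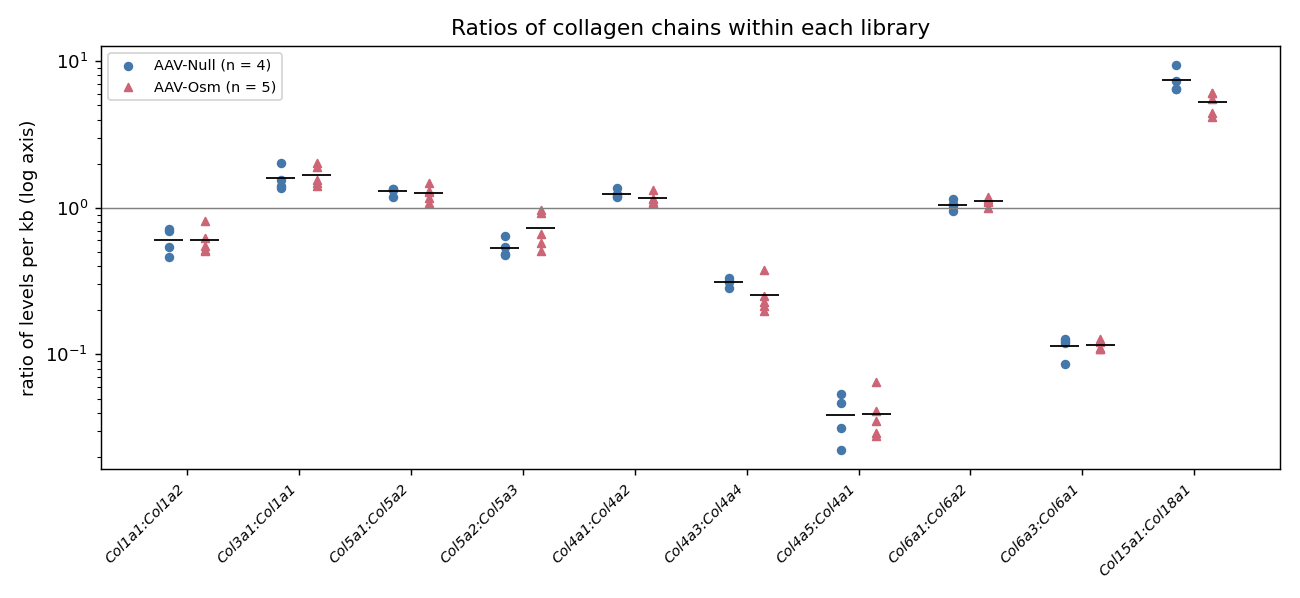
Ratio of levels per kilobase of 10 pairs of chains in each library on a log axis, with a line at each group's mean and a horizontal line at a ratio of 1. The groups are separate for Col15a1 to Col18a1 and overlap for the other 9 pairs.

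Genes that act on collagen were followed in 7 lists, and 0 genes of these lists passed the test. The enzymes and chaperones that modify and fold the chains in the endoplasmic reticulum had 19 of 24 log2 fold changes negative, with a median of -0.14. Among them Serpinh1, the collagen-specific chaperone HSP47, was the gene nearest to the threshold. It stood at 309, 305, 305 and 278 CPM in AAV-Null and at 205, 173, 207, 229 and 208 CPM in AAV-Osm. The groups did not overlap, with means of 299 ± 14.2 (SD, n = 4) and 204 ± 20.1 CPM (n = 5), a log2 fold change of -0.55 (SE 0.12, adjusted p = 0.229). Creb3l1, a transcription factor of secretory cells that make collagen, averaged 10.5 ± 2.15 and 6.30 ± 1.72 CPM (log2 fold change -0.74, SE 0.21, adjusted p = 0.494). P4ha1, a prolyl hydroxylase subunit named here after its value was seen, averaged 79.0 ± 15.2 and 54.9 ± 8.89 CPM (log2 fold change -0.53, SE 0.16, adjusted p = 0.552). Sparc, a collagen-binding glycoprotein and the most abundant gene of the list, averaged 931 ± 274 and 739 ± 134 CPM (log2 fold change -0.33, SE 0.20, adjusted p = 0.914).

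Outside the cell, the list of propeptide removal and crosslinking had 6 of 12 values negative and a median of -0.02. In it Loxl1, a lysyl oxidase relative, stood at a log2 fold change of -0.41 (SE 0.20), and Loxl4 at 0.60 (SE 0.36). The transglutaminase Tgm2, the most abundant, had 0.08 (SE 0.13). Degradation genes had 12 of 17 values negative and a median of -0.16. The list mixes proteases with inhibitors of them, among which Timp1, Timp2, Timp3 and Timp4 all had negative values. Its count and median therefore give no direction for degradation. Of the inhibitors of matrix metalloproteinases, Timp3 (244 CPM) and Timp2 (129 CPM) had higher AAV-Null means than Timp4 (31.4 CPM). Timp4 stood at 22.2, 21.8, 31.1 and 50.4 CPM in AAV-Null and at 18.8, 11.9, 20.7, 15.6 and 7.88 CPM in AAV-Osm. Its groups did not overlap, and AAV-Null 4 was the high and AAV-Osm 5 the low library (log2 fold change -1.07, SE 0.29, adjusted p = 0.475). The gelatinase Mmp9 showed a log2 fold change of -1.14 (SE 0.37, adjusted p = 0.579), and the cathepsin Ctsb, the most abundant of the list, 0.16 (SE 0.15). Collagen receptors had 8 of 14 values negative and a median of -0.04. Mrc2, an endocytic receptor for collagen, had -0.29 (SE 0.19), Cd44 -0.24 (SE 0.18) and the integrin subunit Itgb1 -0.05 (SE 0.19).

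The list of TGF-beta and other matrix inducers had 17 of 27 values negative and a median of -0.07. It also holds genes that restrain TGF-beta signalling, such as Smad7 (-0.07), Ski (-0.24) and Skil (-0.31). Its count and median therefore give no direction for induction. Thbs1, which can activate latent TGF-beta, averaged 8.02 ± 5.75 and 3.46 ± 1.22 CPM (log2 fold change -1.21, SE 0.39, adjusted p = 0.579), and AAV-Null 2 alone stood at 16.5 CPM. Wisp2, a matricellular protein, averaged 7.57 ± 3.23 and 13.6 ± 5.07 CPM (log2 fold change 0.86, SE 0.30, adjusted p = 0.644), and Cyr61, the most abundant, had -0.07 (SE 0.26). Fibril-binding proteoglycans and glycoproteins had 13 of 20 values negative and a median of -0.07. Fn1, fibronectin, on which collagen fibrils are laid down, stood at 16.8, 14.5, 16 and 15 CPM in AAV-Null and at 24.3, 19.6, 20.1, 19.9 and 20.3 CPM in AAV-Osm. All AAV-Osm libraries were above all AAV-Null libraries (log2 fold change 0.42, SE 0.13, adjusted p = 0.549). Fmod, fibromodulin, showed a log2 fold change of -1.08 (SE 0.45, adjusted p = 0.779), and Dcn, the most abundant proteoglycan of the list, -0.27 (SE 0.22, adjusted p = 0.941). Basement membrane partners such as laminins and nidogens had 6 of 15 values negative and a median of 0.08. Sparc, named above under folding, is counted in this list too and was its most abundant gene, with its lowest value (-0.33, SE 0.20). Frem2, a protein of embryonic basement membranes, stood at 3.31, 1.77, 2.40 and 1.03 CPM in AAV-Null and at 4.58, 4.20, 4.04, 3.48 and 4.65 CPM in AAV-Osm, with no overlap (log2 fold change 0.98, SE 0.28, adjusted p = 0.487).

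**Figure D5:**
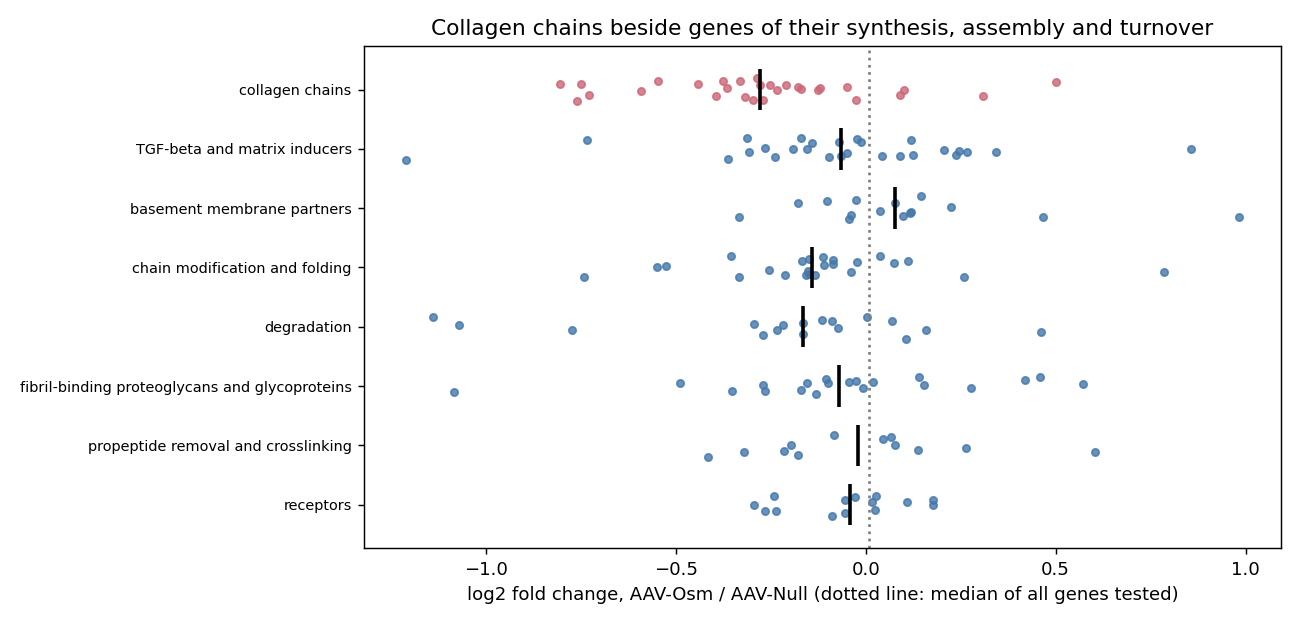
Log2 fold changes of AAV-Osm over AAV-Null for the 29 collagen chains and for the genes of 7 lists that act on or with collagen, 1 point per gene, with a bar at each median and a dotted line at the median of all genes. The collagen chains have the lowest median (-0.28) and the basement membrane partners the highest (0.08).

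Among cell type lists, the fibroblast markers had negative values throughout, and other lists of matrix-making cells did not. All 14 fibroblast markers were measured and all 14 had negative log2 fold changes, with a median of -0.27, beside -0.28 for the collagen chains. The values ran from -0.54 (Meox1, SE 0.14) to -0.01 (Pdgfra, SE 0.15), and those of Lum (-0.04, SE 0.37) and Ddr2 (-0.05, SE 0.18) were also near 0. Dcn, Lum, Dpt, Ddr2 and Pdgfra also belong to the lists above. The fibroblast sum, most of it Dcn and Gsn, ran from 2377 to 3743 CPM in AAV-Null, and from 1921 to 2951 CPM in AAV-Osm. AAV-Null 4, the highest library for 19 chains, held the 3743. The epicardial and mesothelial list, of which 9 of 10 markers were measured, summed to 66.0 to 172 CPM in AAV-Null and to 28.6 to 69.2 CPM in AAV-Osm, with 8 values negative and a median of -0.89; AAV-Null 4 held the 172 and AAV-Osm 5 the 28.6. Liver-type transcripts, which heart muscle should scarcely make, summed to 53.3, 65.9, 285 and 237 CPM in AAV-Null 1 to 4 and to 62.9 to 145 CPM in AAV-Osm. Their log2 fold changes were negative for 12 of 13, with a median of -1.28. Myofibroblast markers (9 of 10 measured) summed to 103 to 200.4 and 132 to 144 CPM, with 5 of 9 values negative and a median of -0.01. Pericyte and smooth muscle markers (10 of 10) had 4 of 10 values negative and a median of 0.03, and summed to 3214 to 5692 and 3422 to 5831 CPM. Most of that sum was Des, which cardiomyocytes also express and which made up 5106 of 5423 CPM in AAV-Osm 2 and 5535 of 5831 CPM in AAV-Osm 3. Endothelial markers (10 of 10) summed to 1251 to 1656 and 1164 to 1428 CPM, with 7 values negative. Macrophage markers (10 of 10) summed to 445 to 946 and 471 to 667 CPM, with 7 values negative. Endocardial and valve markers had 5 of 8 values negative, and adipocyte markers 1 of 3. Schwann and nerve markers, 7 of 10 measured, all had negative values, with sums of 21 to 25.2 and 12.3 to 22.9 CPM. Markers called in these lists numbered 0, and their part in the collagen values was not tested.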

How the data were processed

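Per the labels, mRNA-enriched RNA of 9 heart apex samples was turned into paired-end libraries (KAPA mRNA HyperPrep). The submitters' processing notes name the aligner STAR 2.5.2b, the counter featureCounts with Subread 1.5.1, and build mm10. Annotation, strandedness and multi-mapping rules were not given in the sources used here. As deposited, values are raw read counts per gene, beside coordinates and summed exon length. The table holds 13192 named genes, and 4141 rows without a gene symbol were left out. Library totals cover the named genes only.

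Counts were scaled by TMM factors and tested for AAV-Osm over AAV-Null by the quasi-likelihood F test of edgeR 4.0.16 (R 4.3.3, two-sided, robust dispersions, no covariates). Benjamini-Hochberg adjustment covered all 13192 genes, with a threshold of 0.05; filterByExpr removed 0 genes. The test was checked on simulated data. Levels are CPM scaled by these factors and computed from the counts, ± SD between libraries, and log2 fold changes have their standard error (SE). Total counts per library (11841106 to 30625134) set the counting precision. No 2 libraries were identical; over pairs, chi-square per degree of freedom was at least 6.52. Replicate numbers are names only.

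The members, the gene lists and the alternative settings were chosen with earlier results of these data known. Values in every library are given for the 3 chains of each class highest per kilobase, chains without overlap between groups, called chains, and members of partner pairs averaging 5 CPM or more; in the other lists, the 2 genes with the smallest p and the most abundant gene are named. Alternatives were upper-quartile, total-count and DESeq2 scaling, DESeq2 1.42.0, limma 3.58.1 (voom with and without quality weights), dispersions without robust estimates, other filters (none, or a 1 CPM mean), a prior count of 0.5 in place of 2 for ratios, each library left out, and 2 pairs of libraries left out. Promoter windows came from RefSeq GRCm38.p6 and exon overlaps from the GENCODE annotation of the same build. Protein sequences were not used here.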

Additional observations from a re-analysis of the deposited data

Results flagged for a closer look

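Single libraries stood apart from the rest of their group in 6 of 72 groups of values examined by Dixon's test, of which chance gives about 1 in 20. For Col14a1, AAV-Null 4 stood at 6.65 CPM and the other AAV-Null libraries at 5.31 to 5.36 CPM. For Col4a6, AAV-Null 3 stood at 1.68 CPM and the others at 1.19 to 1.22 CPM. The type VI sum was 261 CPM in AAV-Osm 4 and 176 to 200.4 CPM in the other AAV-Osm libraries. The sum of the other chains (types VII, VIII, XIII, XV, XVIII, XXIII and XXVIII) reached 157 CPM in AAV-Null 4, while the other AAV-Null libraries held 116 to 119.9 CPM. The log2 ratio of Col5a1 to Col5a2, taken here on CPM without division by length, was 0.58 in AAV-Null 1 and 0.74 to 0.77 in the others. The log2 ratio of Col6a3 to Col6a1 on the same scale was -2.09 in AAV-Null 4 and -1.60 to -1.52 in the others. Of these 6 values, 3 belonged to AAV-Null 4.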

How the results depend on the processing

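The number of chains past the threshold was 0 under all 20 alternatives run. For the partner ratios, a single pair could not pass after adjustment, so their count of 0 says nothing about stability. Negative log2 fold changes numbered 21 to 27 of 29, and their median ran from -0.35 to -0.12. Chains without overlap numbered 2 to 8 when single libraries were left out (6 without AAV-Null 3, 4.34% of all genes, and 8 without AAV-Osm 4, 5.58%), 3 with upper-quartile factors (2.33%), with total counts (2.28%) and without both AAV-Null 4 and AAV-Osm 5 (7.74%), and 11 without both AAV-Null 3 and AAV-Null 4 (16.3% of all genes); fewer libraries make separation easier. Over 14 alternatives the AAV-Osm to AAV-Null ratio of summed levels ran from 0.759 to 0.867 for fibrillar, 0.888 to 1.02 for basement membrane, 0.749 to 0.905 for type VI, 0.961 to 1.07 for fibril-associated and 0.861 to 0.981 for other chains. No paired analysis was run because the labels name no pairing between AAV-Osm and AAV-Null samples. Chains under 2 CPM rested on as few as 6 counts in a library, which limits what could be detected for them.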
